A study of Anas platyrhynchos with 20 samples.

Results

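Heat shock proteins and the DNAJ co-chaperones that work with them were followed gene by gene in the duck, in its liver and in its breast muscle. The genes were chosen by symbol alone, as every entry of the deposited table whose name began with HSPA, HSPB, HSPD, HSPE, HSPH, HSP90, HSP25, HSP30, DNAJA, DNAJB, DNAJC or CRYAB, or with HSF and a number. This gave 69 genes of 25117, of which 41 were DNAJ genes (4 DNAJA, 10 DNAJB and 27 DNAJC), and 28 of these 41 entries carried a J domain annotation. The others were 8 HSP70 genes, 3 HSP110 genes, 3 HSP90 genes, the 2 chaperonin genes HSPD1 and HSPE1, 6 small heat shock proteins and 4 heat shock factors. HSPB11, which the reference table lists as the ciliary transport gene IFT25, and HSPBAP1 matched by name only.

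Heat shock proteins bind unfolded polypeptides and help them to fold, to assemble or to be removed. HSP70 holds short hydrophobic stretches of a client and lets go with each cycle of ATP, DNAJ proteins bring the client and start the hydrolysis through their J domain, and HSP110 proteins exchange the nucleotide. HSP90 finishes the folding of signalling proteins, the chaperonins HSPD1 and HSPE1 fold proteins inside mitochondria, and the small heat shock proteins hold unfolding proteins without using ATP. Part of the family is induced through the transcription factor HSF1 when proteins unfold in the cytosol, and another part through the unfolded protein response of the endoplasmic reticulum (ER). The liver loads its ER with secreted proteins, and striated muscle is known for its small heat shock proteins, which guard the contractile fibres.

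RNA-seq libraries came from male Runzhou white-crested ducks, a breed of small body size, of which the control ducks ate feed with 2% duck oil and the others feed in which linseed oil took its place at 2%. The groups are CL and CM, liver and breast muscle of control ducks, and HL and HM, the same tissues of ducks on linseed oil, with 5 libraries each. The labels give day 28, and by the study's methods a trial of 28 days began when the ducks were 28 days old, and the ducks were fasted and stunned before the tissue was frozen. The study sequenced the control ducks with the lowest and the linseed oil ducks with the highest n-3 fatty acid ratios, so the ducks of a group are not a random draw of the ducks on that diet. Libraries are named by group and number, and the labels do not say that equal numbers mark one duck.

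Levels are FPKM, here a count of fragments divided by the length of the gene and by the median-ratio size factor of the library. Levels can thus be set side by side between genes. Depth was 15417718 to 16705165 fragments per liver library and 11852903 to 13432987 per breast muscle library. Between 52 and 54 of the genes reached 1 FPKM in each liver library, and between 58 and 60 in each muscle library. Another 5 genes were below 1 FPKM in all libraries: DNAJB8 and DNAJC5B were at 0 in all 20 libraries, and the highest FPKM was 0.281 for HSF4, 0.0727 for HSF5 and 0.605 for HSPBAP1. The tissues fitted their labels: all 8 hepatocyte markers measured were higher in liver and all 7 skeletal muscle fibre markers were higher in breast muscle, in both diets. Library CL 1 stood apart in the liver, holding the highest value of 25.5% and the lowest of 20.5% of the 9543 genes tested there. HM 2 stood apart in breast muscle, with the highest value of 26.2% and the lowest of 29.4% of 10148 genes.

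A few genes made up most of the chaperone transcript in each tissue. In the liver, HSP90AA1 (the inducible cytosolic HSP90) took 19.6% of the summed FPKM of the 69 genes, HSPA2 15.4%, HSPA8 15.2% and the ER chaperone HSPA5 11.4%. These shares are of pooled means, in which livers with a high sum weigh most, and HSPA2 lay below HSPA8 in 6 of the 10 livers. HSPA8 is the constitutive cytosolic HSP70, and in chicken the intronless gene named HSPA2 is the heat-inducible HSP70; the duck entry also has a single exon. In breast muscle the same leading genes followed each other, HSP90AA1 with 15.7%, HSPA2 with 14.6% and HSPA8 with 13.7%, and the next places went to the small heat shock proteins HSPB1 with 9.68% and HSPB8 with 4.63%. The 9 genes with the highest means held 82.6% of the sum in liver, the others being HSP90B1, HSPD1, DNAJA4, HSPA9 and HSPE1. HSP90AB1, the constitutive cytosolic HSP90, had only 786 bases of exon in its entry and reached at most 3.31 FPKM, so it says little about the level of that protein's transcript.

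The level of the family varied more between ducks than between diets. The 69 genes summed to 13248 FPKM in CL 1, 7805 in HL 1 and 2335 to 5651 in the other 8 livers. CL 1 thus gave 1.71% of all FPKM to these genes, against a median of 0.545% over the 10 livers. In breast muscle the sum ran from 2144 in HM 4 to 4550 in CM 3. On average the genes summed to 4031 ± 2216 FPKM (SD, n = 5) in the HL libraries and to 6168 ± 4135 in the CL libraries, which is within the spread between ducks (exact two-sided permutation test, p = 0.397), and without CL 1 the CL mean was 4398 ± 1382 (exact p = 0.794). The sums of the muscles averaged 3008 ± 675 for HM and 3292 ± 896 for CM (exact p = 0.603). With 5 libraries in each group this test cannot give a p below 0.00794.

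**Figure D1:**
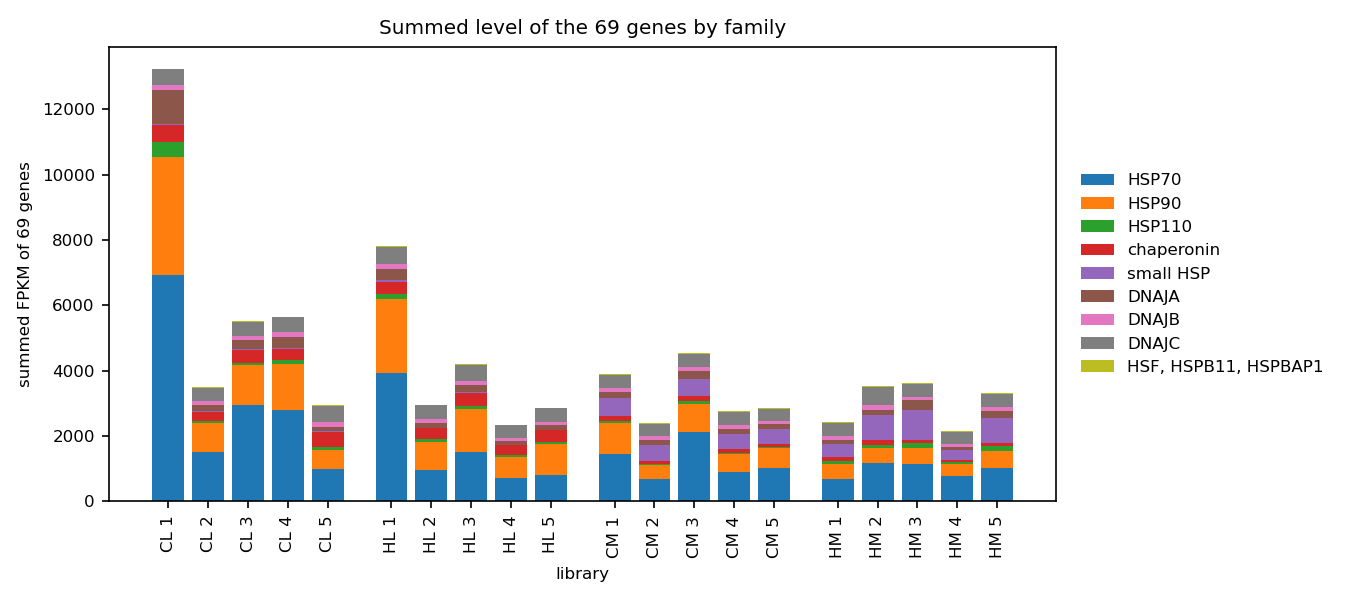
Summed FPKM of the 69 genes in each of the 20 libraries, stacked by family, with CL and HL from liver and CM and HM from breast muscle; each bar is 1 library. CL 1 reaches 13248 FPKM and HL 1 reaches 7805, while the small heat shock proteins make a visible band only in breast muscle.

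The range from the lowest to the highest liver was widest for HSPA2, DNAJA4 and HSPB8, followed by DNAJC12 and HSPA4. It was not wide in all members counted here as HSF1-inducible: HSPD1 ranged 1.71-fold, HSPE1 2.30-fold and HSPA4L 2.98-fold. HSPA2 measured 2864 FPKM in CL 1, 421 in CL 2, 1406 in CL 3, 1055 in CL 4 and 72.8 in CL 5. In HL it measured 1409.7, 42.0, 359, 69.2 and 166 FPKM in libraries 1 to 5. Both diets thus held livers with little and livers with much HSPA2, and the highest liver had 68.2 times the FPKM of the lowest. DNAJA4, a cytosolic DNAJ protein that pairs with HSP70, measured 884, 49.8, 143, 193 and 31.3 FPKM in CL 1 to CL 5 and 208, 20.9, 84.6, 26.8 and 42.9 in HL 1 to HL 5. Its value in CL 1 was 17.8 times the median of the other 9 livers.

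HSP90AA1 and HSPA8 ran through the livers in nearly the same order at a smaller range. HSP90AA1 measured 2907, 635, 1048, 1147 and 314 FPKM in CL 1 to CL 5 and 1365, 499.5, 1046, 459 and 578 in HL 1 to HL 5. HSPA8 measured 2094, 581, 916, 890.0 and 321 FPKM in CL and 1224, 287, 716, 343 and 364 in HL. For both genes CL 1 was highest and HL 1 second, and the highest liver held 9.26 times the lowest for HSP90AA1 and 7.31 times for HSPA8. The HSP110 genes HSPA4 and HSPH1, which exchange the nucleotide of HSP70, shared this top pair. HSPA4 did not keep the order beyond it, as CL 3 came next after HL 1 for HSPA8 but was the lowest liver for HSPA4. HSPA4 measured 316 FPKM in CL 1 and 85.3 in HL 1, against 25.5 to 61.2 in the other 8 livers. HSPH1 measured 89.2 FPKM in CL 1 and 41.9 in HL 1, against 10.9 to 32.2 in the others.

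**Figure D2:**
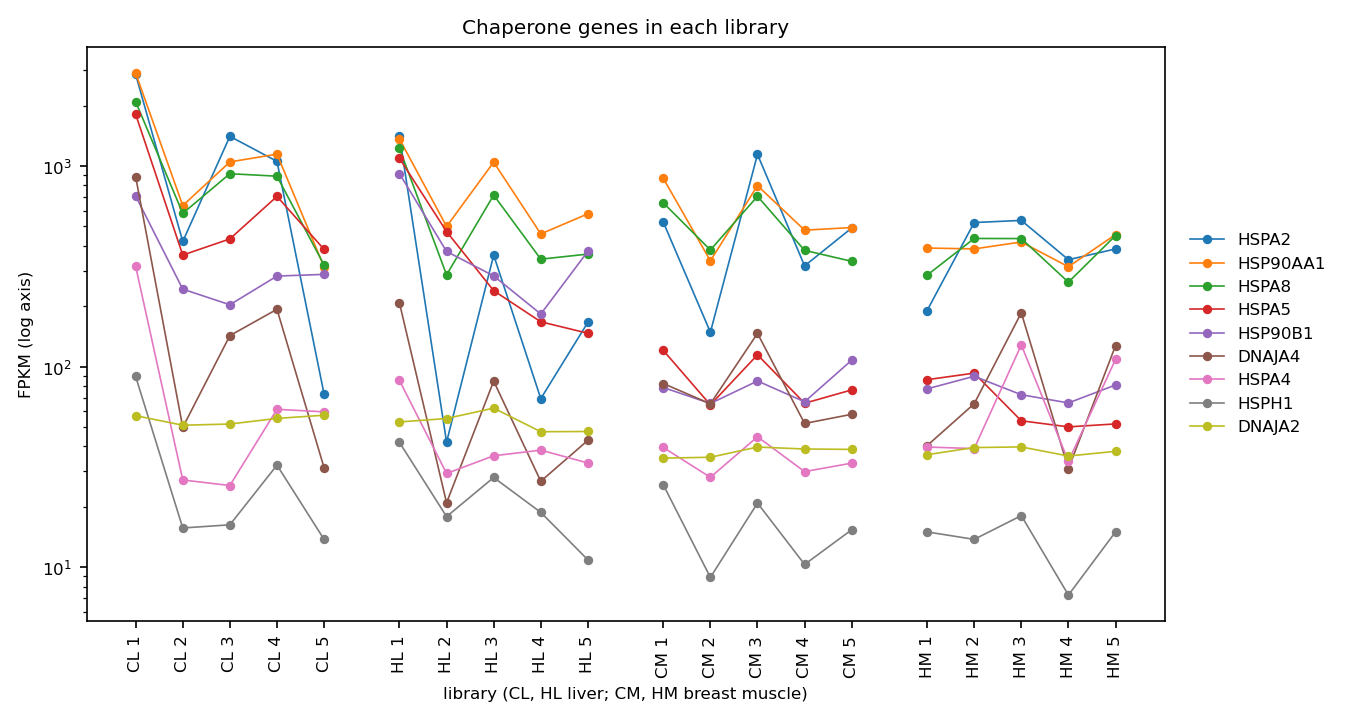
FPKM of 9 chaperone genes on a log axis, by library; each point is 1 library and lines join the libraries of a group only to help follow a gene. CL 1 and HL 1 hold the top values of HSPA2, HSP90AA1, HSPA8, HSPA5, HSP90B1, DNAJA4, HSPA4 and HSPH1 among the livers, while DNAJA2 stays between 47.3 and 62.1 FPKM.

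Several ER chaperones were high in CL 1, and HSPA5 and HSP90B1 were high in HL 1 as well. HSPA5, also known as BiP, the HSP70 of the ER, measured 1812, 359.7, 433, 706 and 384 FPKM in CL 1 to CL 5 and 1093, 471, 239, 167 and 147 in HL 1 to HL 5. HSP90B1, the HSP90 of the ER, measured 709 FPKM in CL 1 and 917 in HL 1, against 183 to 376 in the other 8 livers. HSPA13, an HSP70 relative of the ER, measured 38.4 FPKM in CL 1 and 6.78 to 12.7 in the other 9 livers, and DNAJB9, an ER DNAJ protein that the unfolded protein response induces, 60.9 and 7.56 to 26.5 FPKM. These high values were not shared by all ER members. DNAJB12, a DNAJ protein of the ER membrane, was at 8.13 FPKM in CL 1, against 14.4 to 15.4 in the other CL libraries. This lay within the 7.86 to 15.4 FPKM of the other 9 livers. DNAJC16 was at 2.51 FPKM in CL 1, below the 3.91 to 8.18 of the other 9 livers. In CL 1 DNAJC1, DNAJB11 and DNAJC3 lay near the median of the other 9 livers, at 0.84, 1.13 and 1.25 times it. Outside the chosen genes, the summed level of 22 ER folding and unfolded protein response genes was highest in the same library of each diet, at 4349 FPKM in CL 1 and 4069 in HL 1, against group medians of 3237 and 2823.

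Other members hardly varied. DNAJA2, a cytosolic DNAJ protein kept at a steady level, ran from 47.3 to 62.1 FPKM over the 10 livers, 1.31 times from lowest to highest, and had the narrowest range of the family in both tissues. HSPA9, the mitochondrial HSP70, ran from 101 to 180.4 FPKM, and HSPD1 from 209 to 358. Of the 52 members at 1 FPKM or more in every liver, 14 ranged more than 5-fold and 19 less than 2-fold, with a median of 2.55 times from lowest to highest. DNAJB2 and DNAJC14 went the other way in CL 1. DNAJB2, a DNAJ protein that hands clients on for degradation, measured 8.99 FPKM in CL 1 and 29.7 to 37.4 in the other CL libraries, and DNAJC14 3.40 and 17.8 to 22.0 FPKM. Over the other 9 livers DNAJB2 measured 13.3 to 37.4 FPKM and DNAJC14 6.83 to 22.0.

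The livers with these high values also held high immediate early genes, which respond to any fresh stimulus of a cell. The summed FPKM of the 18 immediate early genes in the table was 427 in CL 1 and 357 in HL 1, the highest of each diet, against group medians of 274 and 210.4. They were not alone in this. The sum of 10 mitochondrial folding genes outside the family was also highest there, at 386 in CL 1 and 364 in HL 1. Its group medians were 349.7 and 316. The sum of 30 cytosolic co-chaperones outside the family was highest in CL 1 and HL 3, and that of the hepatocyte markers in CL 1 and HL 5. CL 1 was the highest liver for 28 of the 53 members tested (52.8%), and for 25.5% of all genes tested. Over the libraries of both diets, the spread left within groups was 0.375 (residual SD of log2(FPKM + 1), median of the 53 members) and 0.318 over all 9543 genes, and 10 members lay among the 5% of genes with the widest spread. What set CL 1 and HL 1 apart was not tested.

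In breast muscle the spread was smaller and the leading libraries changed with the gene. HSPA2 measured 525, 148, 1143, 318 and 491 FPKM in CM 1 to CM 5 and 190.2, 523, 536, 341 and 386 in HM 1 to HM 5, a range of 7.70 times. HSP90AA1 measured 869, 337, 798, 479 and 494 FPKM in CM and 390.0, 386, 418, 315 and 455 in HM. For HSP90AA1, HSPA8 and HSPH1 the top pair was CM 1 and CM 3. HSPA4, by contrast, was high in HM 3 with 128 FPKM and HM 5 with 109, against 28.0 to 44.7 in the other 8 muscles. HSPB8 and DNAJB4 were highest in the same pair of libraries: HSPB8 measured 362 FPKM in HM 3 and 216 in HM 5 against 57.4 to 154 in the others, and DNAJB4 37.6 and 30.9 FPKM against 13.0 to 22.3. Of the 57 members at 1 FPKM or more in every muscle, 4 ranged more than 5-fold (HSPA2, HSPB8, DNAJA4 and HSPB7) and 27 less than 2-fold.

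The transcription factors of the heat shock response had low levels. HSF1, the main activator, measured 6.15 to 10.7 FPKM in CL and 5.36 to 8.63 in HL, and 8.63 to 13.6 in CM and 7.75 to 14.6 in HM. CL 1 was the highest liver for 9 of the 12 HSF1-inducible members, for 52.8% of all members tested and for 25.5% of all genes tested. It was not the highest for HSPB1, HSPB8 and CRYAB. HSF1 in CL 1 was at 6.15 FPKM, the lowest of the CL libraries. HSF2, a second factor that works beside HSF1, lay between 4.08 and 10.6 FPKM in all 20 libraries. HSF1 is known to be held inactive as a protein in unstressed cells and to be switched on after translation. Its activity was not measured here, and its part in the chaperone levels was not tested. An entry described as similar to HSF3, a factor that birds use in the heat shock response, lies outside the chosen names and measured 9.98 to 15.5 FPKM in liver and 13.0 to 17.6 in breast muscle.

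To ask whether linseed oil changed these genes, HL vs. CL and HM vs. CM were compared by limma on log2(FPKM + 1), on which scale the fold changes of low genes are understated. DEGs were the genes whose Benjamini-Hochberg adjusted p, over all genes tested, was below 0.05 and whose log2 fold change was beyond 1 in either direction. None of the 53 members tested in liver was a DEG, where 12 of all 9543 genes were (0.126%), and 3 members had an unadjusted p below 0.05, against 12.3% of all genes. None of the 60 members tested in breast muscle was a DEG, where no gene was among 10148 (0%), and 2 members had an unadjusted p below 0.05, against 5.5% of all genes. Without HM 2 these were 6 members of 60 and 1343 of all 10148 genes. Voom on the recovered fragments called no member in either tissue. By DESeq2 at the same thresholds the paper reported far more DEGs between the diets in both tissues. The low counts of DEGs given here hold for the tests used here. The 16 members not tested in liver and the 9 not tested in breast muscle were below 1 FPKM in more than 5 of the 10 libraries. The SE of HSPA2 in liver was 1.06 on the log2 scale, so even a difference of several-fold in it lay within the error of these 10 ducks.

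The fitted difference in liver was below 0 for 39 of 53 members, against 53.6% of all genes tested. The median log2 fold change of the members was -0.12, against -0.03 over all genes. Without CL 1 the median was -0.07, with 22 members above 0, 7 of 53 had an unadjusted p below 0.05, as did 2334 of all 9543 genes, and 96 genes were DEGs, none of them a member. Without HL 1 the median was -0.16, with 11 members above 0, and 8 of 53 had an unadjusted p below 0.05, as did 1351 of all genes. HSPA2 had the lowest estimate, -1.80 ± 1.06 (SE, limma, adjusted p = 0.538), and it lay between -2.60 (without CL 5) and -1.26 (without HL 2) as single livers were left out, with -1.28 without CL 1. HSPB1, HSPE1 and DNAJB9 lay among the 8 smallest unadjusted p-values, with log2 fold changes of -0.67, -0.51 and -0.88 and limma adjusted p-values of 0.418, 0.356 and 0.398. HSPE1, the lid of the mitochondrial chaperonin, measured 158, 86.0, 128, 109.7 and 151 FPKM in CL and 72.5, 84.7, 96.7, 68.8 and 117 in HL, so the groups overlapped. Its partner HSPD1 had a log2 fold change of 0.01 ± 0.19.

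The liver groups did not overlap for 2 of the 53 members (3.77%), DNAJC24 and DNAJC5, against 2.8% of all genes tested. DNAJC24, a factor of diphthamide synthesis known from yeast and mammals, measured 3.205, 1.78, 2.41, 2.22 and 2.27 FPKM in CL and 1.68, 1.59, 1.25, 1.67 and 0.962 in HL. Every HL library lay below every CL library, and its log2 fold change of -0.47 ± 0.15 had the smallest unadjusted p of the family, 0.00787 (limma, adjusted p = 0.219). DNAJC5, the cysteine string protein of secretory vesicles, measured 2.32 to 2.55 FPKM in CL and 2.56 to 3.51 in HL, with a log2 fold change of 0.24 ± 0.12 (limma, adjusted p = 0.43). Both were low genes. The others of the 8 smallest p-values were HSPA2, above, DNAJC13, an endosomal DNAJ protein, with a log2 fold change of 0.28, and HSF2 with -0.27.

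In breast muscle HSPB2, a small heat shock protein of striated muscle, had the smallest unadjusted p. It measured 12.1, 16.2, 14.5, 14.3 and 11.4 FPKM in CM and 5.14, 10.8, 9.59, 6.06 and 13.7 in HM, where 4 of the 5 HM libraries lay below all CM libraries and HM 5 among them. The log2 fold change was -0.61 ± 0.23 (limma, adjusted p = 0.782). DNAJC7, a DNAJ protein that also binds HSP90, measured 38.4 to 54.3 FPKM in CM and 51.0 to 69.3 in HM, with a log2 fold change of 0.35 ± 0.15 (limma, adjusted p = 0.847). HSPA4 had a log2 fold change of 0.77 ± 0.36 (limma, adjusted p = 0.906), which came with the high values of HM 3 and HM 5. HSP90AA1 had -0.52, HSF2 0.33, DNAJA3 (the mitochondrial DNAJA protein) 0.30, DNAJC21 (a factor of ribosome maturation) 0.28 and DNAJB9 -0.35. The muscle groups overlapped for all 60 members tested, against 1.23% of all genes with groups that did not.

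**Figure D3:**
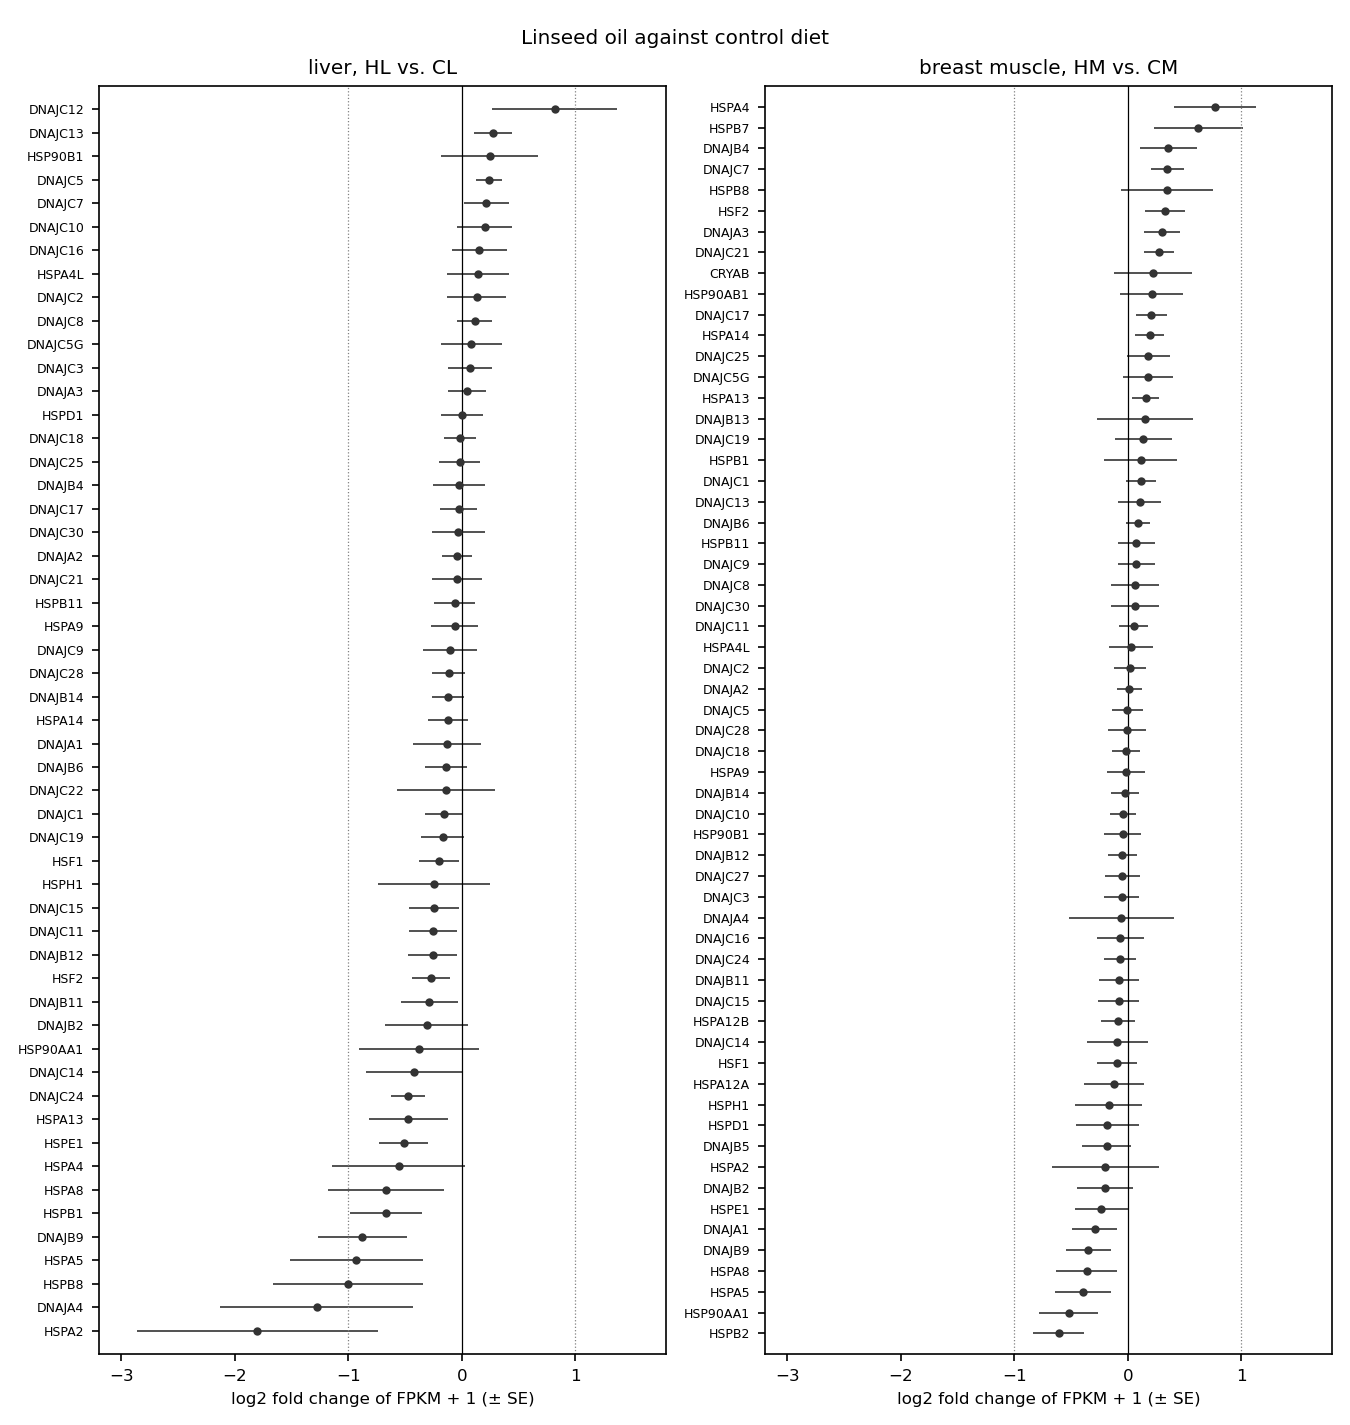
Log2 fold change of FPKM + 1, linseed oil over control, for the 53 members tested in liver and the 60 tested in breast muscle; points are limma estimates, bars are ± SE, and dotted lines mark -1 and 1. In liver 39 of 53 points lie below 0 (against 53.6% of all genes tested), with HSPA2 lowest at -1.80, and no member passed the adjusted threshold in either tissue.

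An interaction term, fitted on all 20 libraries, asked whether the response to linseed oil differed between the tissues. No member was called among the 62 tested, against 1 of 11256 genes (0.00888%), and 2 had an unadjusted p below 0.05, against 8.11% of all genes. These were HSPB2 with a log2 difference of 0.61 ± 0.25 (limma, adjusted p = 0.518) and HSF2 with -0.60 ± 0.25 (limma, adjusted p = 0.52). The next were DNAJC24 with -0.40, HSPA4 with -1.32 and HSPB1 with -0.78, where a negative value means a lower response to linseed oil in liver than in breast muscle. HSPB2 was at 0 in every liver, so its value restates the difference between HM and CM.

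Grouped by where they work, the members gave no DEG either. The 11 tested genes of the HSF1-inducible group had a median difference of -0.51 on the log2 scale between HL and CL, and the 12 tested in muscle -0.18 between HM and CM. The 13 ER members had -0.12 and -0.05 and the 9 mitochondrial members -0.12 and -0.01, against -0.03 and 0.00 over all genes. The value of the inducible group in liver depended on CL 1. With all livers 2 of its 11 genes lay above 0 and 9 below. Without CL 1, HSPA2 had -1.28, HSPB8 -0.94, HSPB1 -0.81, HSPE1 -0.42 and HSPA8 -0.32 in HL vs. CL. HSPA4L then had 0.37, HSPH1 0.20, HSPD1 0.11, HSP90AA1 0.03, HSPA4 0.03 and DNAJA1 0.02. Lists of folding genes outside the family gave no DEG as well. None of the 27 cytosolic co-chaperones outside the family that were tested in HL vs. CL was a DEG, and their median log2 fold change was -0.11. None of 22 ER folding genes was a DEG, at a median of -0.11, and the lowest of them were HERPUD1 at -1.43 (limma, adjusted p = 0.19) and DDIT3 at -1.35 (limma, adjusted p = 0.17), both induced by ER stress. None of 10 mitochondrial folding genes was a DEG, at a median of -0.11. In HM vs. CM the medians of these lists were 0.00, -0.08 and 0.11, again with no DEG, and the immediate early genes had -0.17 in liver and -0.70 in breast muscle, with no DEG among 12 and 17 tested. Of the cell type markers in the same livers, 1 of 7 macrophage markers (MRC1) and 2 of 7 endothelial markers tested (CDH5 and STAB2) were DEGs, higher in HL. The median log2 fold change was 2.10 for the macrophage and 1.08 for the endothelial markers, and all of them had an unadjusted p below 0.05. The summed FPKM of the macrophage markers was 171 to 225 in CL and 247 to 768 in HL, and that of the endothelial markers 15.8 to 36.5 in CL and 48.5 to 62.0 in HL, with no marker of either list at 0 in all libraries of a group. The 8 hepatocyte markers had a median of -0.30, none of them a DEG, and no marker of fibroblasts, lymphocytes, adipocytes, slow muscle fibres or red blood cells was a DEG in either diet comparison. The part of these cell types in the chaperone values was not tested, and in whole tissue fewer cells of a type cannot be told apart from less RNA per cell.

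The tissues differed far more than the diets. In CL vs. CM 23 of 61 members tested were DEGs, 12 with more in liver and 11 with more in breast muscle (10 and 15 after quantile normalization), which is 37.7% of the members against 42.3% of all genes tested (20.4% with liver above muscle and 21.9% with muscle above liver). In HL vs. HM 22 of 59 were DEGs, 10 with more in liver and 12 with more in breast muscle, 37.3% against 40.2% of all genes (19.8% and 20.4%). These shares lay near those of all genes. Of the members called, 9 in CL vs. CM (CRYAB, HSPB2, HSPB7, HSPA12A, HSPA12B, DNAJB5, DNAJB13, DNAJC12 and DNAJC22) and 7 in HL vs. HM reached 1 FPKM in a single tissue, and so passed the filter only through the tissue where they were high. The groups did not overlap for 31 members in CL vs. CM, against 55.4% of all genes, and for 38 in HL vs. HM, against 51.8%. Of the 25 members called in either diet, 20 were called in both in the same direction, 10 each way, in different libraries. The share of all genes called in both was not counted, so the 20 cannot be set against it. They include CRYAB, HSPB2, HSPB7, HSPA12A, DNAJB5, DNAJC12 and DNAJC22. These passed the filter in both diets only through the tissue where they were high, so their repeated calls are a description.

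**Figure D4:**
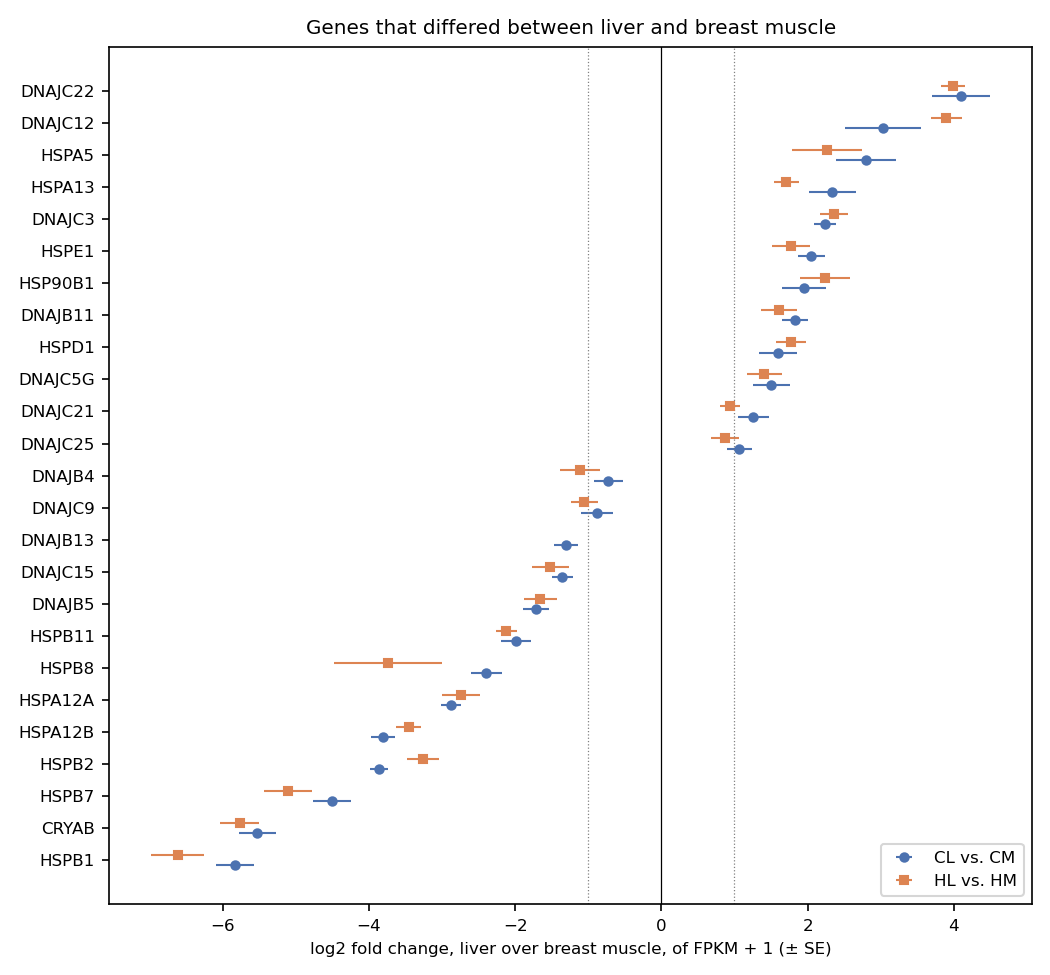
Log2 fold change of FPKM + 1, liver over breast muscle, of the 25 members called in either diet; circles (CL vs. CM) and squares (HL vs. HM) are limma estimates, bars are ± SE, and dotted lines mark -1 and 1. DNAJC22, DNAJC12, the ER chaperones, HSPD1 and HSPE1 lie to the right and the small heat shock proteins and the mitochondrial DNAJC15 to the left, with HSPB1 at -5.83 in CL vs. CM; DNAJB13 was not tested in HL vs. HM. Of the members called, 9 in CL vs. CM and 7 in HL vs. HM passed the filter only through the tissue where they were high, and their points are a description.

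The 6 small heat shock proteins chosen by symbol had their highest levels in breast muscle. HSPB1, also known as HSP27, which caps and steadies actin filaments, measured 304, 325, 321, 204 and 248 FPKM in CM 1 to CM 5, and 2.27, 2.12, 4.40, 5.97 and 6.05 in CL 1 to CL 5. In HM it measured 215, 431, 464, 140.3 and 395 FPKM, and in HL 4.31, 3.04, 1.42, 1.29 and 1.26. The lowest muscle lay above the highest liver in both diets, and the log2 fold change was -5.83 ± 0.26 in CL vs. CM (limma, adjusted p = 4.74e-10) and -6.61 ± 0.36 in HL vs. HM. CRYAB, which binds desmin and titin in muscle, measured 27.5 to 89.98 FPKM in CM and 38.6 to 127 in HM, and 0 to 0.498 in CL and 0 to 0.411 in HL. The 5 CL libraries held 9 fragments of CRYAB together and the 5 CM libraries 3574, a 248-fold difference in pooled level, with a 95% interval of 130.3 to 542 that covers counting error only.

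HSPB7 and HSPB2 were close to absent from the liver. HSPB7, a partner of filamin C in heart and skeletal muscle, measured 12.04 to 35.0 FPKM in CM and 15.1 to 68.6 in HM, and at most 0.581 in CL and 0.375 in HL. HSPB2 measured 11.4 to 16.2 FPKM in CM and had no fragment in any of the 10 livers, where a count of 0 allows up to 3 fragments per group, so it was at least 602-fold higher in CM than in CL and at least 441-fold higher in HM than in HL. HSPB3, which pairs with HSPB2 in mammalian muscle, was low even in muscle, 0.189 to 2.69 FPKM in CM and 0.330 to 1.73 in HM, and was not tested. It had no fragment in CL, and was at least 60.7-fold higher in CM.

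HSPB8 had the highest liver level of the 6 small heat shock proteins chosen by symbol. It measured 14.5 to 26.8 FPKM in CL and 91.8 to 154 in CM, and the log2 fold change was -2.39 ± 0.21 (limma, adjusted p = 3.78e-07). In HL it split, with 39.5 FPKM in HL 1 and 34.9 in HL 3, against 6.88, 3.61 and 1.93 in HL 2, HL 4 and HL 5, and in HL vs. HM the log2 fold change was -3.74 ± 0.74 (limma, adjusted p = 0.000709). BAG3, the partner of HSPB8 in the removal of damaged muscle proteins, was higher in muscle as well, with a log2 fold change of -3.27 in CL vs. CM and -4.20 in HL vs. HM. So was UNC45B, the HSP90 co-chaperone that folds muscle myosin, with -4.38 and -4.26. Of the 29 cytosolic co-chaperones outside the family that were tested, 8 were DEGs in each diet, 4 in each direction, a lower share than the 42.3% and 40.2% of all genes.

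**Figure D5:**
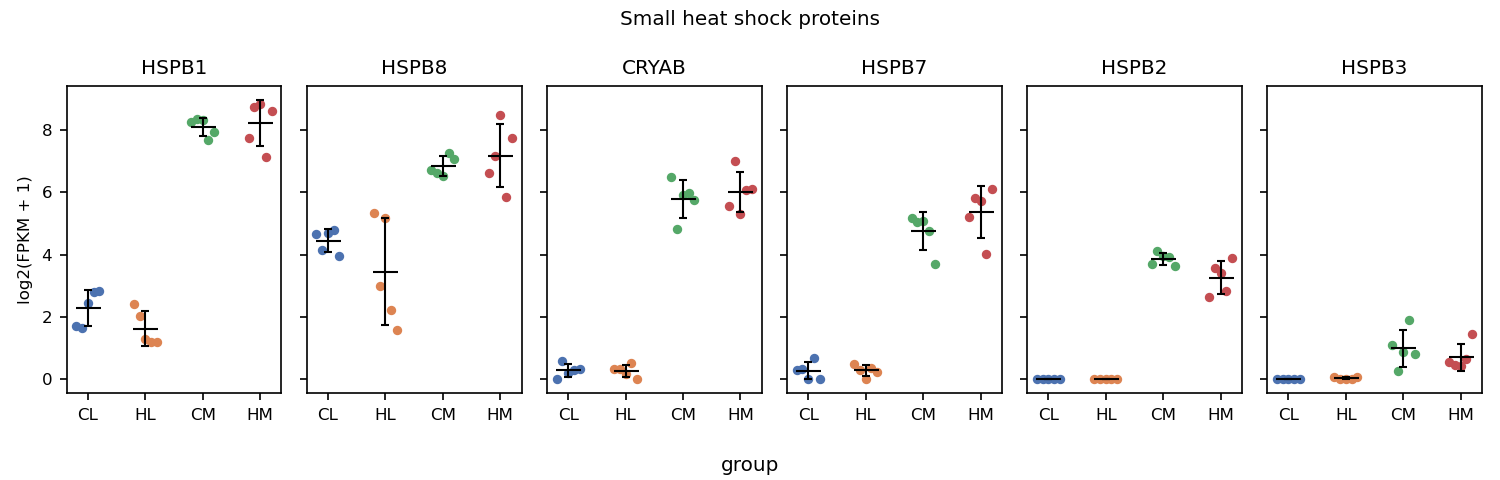
Log2(FPKM + 1) of the 6 small heat shock proteins by group; each point is 1 library, and the black line and bars give the mean ± SD of 5 libraries. HSPB1, HSPB8, CRYAB, HSPB7 and HSPB2 lie higher in breast muscle (CM and HM) than in any liver (CL and HL), HSPB2 is at 0 in all livers, and HSPB3 is low throughout.

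HSPB2 and CRYAB are neighbours. On the duck genome ZJU1.0, HSPB2 lies at positions 7612189 to 7615499 on the minus strand of sequence NC_051796.1 and CRYAB at 7616805 to 7620096 on the plus strand, so the genes point away from each other with 1305 bases between them. The pair was shared in tissue, since both were muscle genes, but CRYAB had the higher level, with a mean of 58.4 FPKM in CM against 13.7 for HSPB2. HSPD1 and HSPE1 form a like pair, at 38113829 to 38123897 on the minus strand and 38123908 to 38128016 on the plus strand of NC_051778.1, with 10 bases between them. Both were higher in liver than in breast muscle.

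Other members that were higher in breast muscle were a mixed set. HSPA12A and HSPA12B, distant relatives of HSP70, measured 8.58 to 13.6 and 15.2 to 22.8 FPKM in CM, and at most 0.658 and 0.670 in CL. Their log2 fold changes in CL vs. CM were -2.87 ± 0.14 and -3.81 ± 0.17. HSPA12A and HSPA12B, like DNAJB5 and DNAJB13 below, passed that filter only through breast muscle, so their values are given as a description. HSPA12B is known from blood vessel endothelium in mammals, and the 8 endothelial markers summed to 382 to 592 FPKM in CM and 15.8 to 36.5 in CL; their part in its value was not tested. DNAJB5, an HSP70 partner that binds a class II histone deacetylase in mammalian heart, had a log2 fold change of -1.71, DNAJC15, a DNAJ protein of the inner mitochondrial membrane, of -1.35, HSPB11 of -1.98 and DNAJB13, known from sperm tails and cilia, of -1.31. DNAJB13 measured 1.48 to 3.33 FPKM in CM and 0.0978 to 0.544 in CL, with 229 fragments against 21 in all. DNAJB4 and DNAJC9, a histone chaperone, passed the threshold in HL vs. HM with -1.11 and -1.06 and measured -0.72 and -0.88 in CL vs. CM.

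The liver held more of several ER chaperones. HSPA5 measured 64.4 to 120.4 FPKM in CM and 359.7 to 1812 in CL, with a log2 fold change of 2.80 ± 0.41 (limma, adjusted p = 4.32e-05), and 2.26 ± 0.48 in HL vs. HM. HSP90B1 had a log2 fold change of 1.95 ± 0.30 in CL vs. CM and 2.24 ± 0.34 in HL vs. HM. DNAJC3, the ER co-chaperone also known as P58IPK, measured 59.3 to 79.0 FPKM in CL and 9.95 to 15.8 in CM, with 2.24 ± 0.15 (limma, adjusted p = 2.60e-08), and showed the smallest error of the ER members called. HSPA13 had 2.34 ± 0.32 and DNAJB11, the soluble DNAJ partner of HSPA5, 1.82 ± 0.18. Of the 13 ER members, 6 were DEGs with more in liver in CL vs. CM (the 5 above and DNAJC25), against 20.4% of all genes. In HL vs. HM 5 were, against 19.8%. None was a DEG with more in breast muscle. The median log2 fold change was 0.89 and 0.87, against 0.02 and 0.01 over all genes. DNAJB9 had 0.53 in CL vs. CM and 0.00 in HL vs. HM and was not a DEG.

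The ER genes outside the family showed the same direction. Of 22 ER folding and unfolded protein response genes tested, 19 were DEGs with more in liver in CL vs. CM, against 20.4% of all genes. In HL vs. HM 18 were, against 19.8%. None was a DEG with more in breast muscle, and the median was 1.83 and 1.90. DDIT3 lay below 0 in HL vs. HM, at -0.79 (limma, adjusted p = 0.0254). The DEGs of CL vs. CM included P4HB, a protein disulfide isomerase, with 3.36 and the transcription factor XBP1 with 3.53. HYOU1, the HSP110 relative of the ER, was another, with 2.34. In CL vs. CM DNAJC10 and DNAJB12, ER members below the fold threshold, had 0.68 and 0.89, while DNAJC1, an ER membrane DNAJ protein, had -0.11 and DNAJC18 -0.46. In HL vs. HM DNAJC1 had -0.38 and DNAJC18 -0.46 (limma, adjusted p = 0.0279 and 0.00483), with groups that did not overlap.

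The mitochondrial members lay in both directions. HSPD1 measured 209 to 358 FPKM in CL and 54.9 to 127 in CM, with a log2 fold change of 1.59 ± 0.26 (limma, adjusted p = 0.000121), and HSPE1 had 2.05 ± 0.18. HSPA9 had 0.72 ± 0.20, below the fold threshold, with groups that did not overlap. DNAJC15 was higher in breast muscle, and DNAJC19, DNAJC28 and DNAJC30, other mitochondrial DNAJ proteins, had -0.49, -0.75 and -0.83. Of the 9 mitochondrial members, 2 were higher in liver and 1 was higher in muscle in each diet, counts too small to set apart from the shares of all genes (20.4% and 21.9% in CL vs. CM, 19.8% and 20.4% in HL vs. HM). Of 10 mitochondrial folding genes outside the family, LONP1, a protease, and GRPEL1, the nucleotide exchange factor of HSPA9, were higher in liver in CL vs. CM with 1.38 and 1.06. In HL vs. HM LONP1 was higher in liver with 1.27, PAM16, a part of the import motor, was higher in muscle with -1.42, and GRPEL1 measured 0.73, below the fold threshold.

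DNAJC22 and DNAJC12 were liver genes, near 0 in breast muscle; both passed the filter only through the liver, so their values are given as a description. DNAJC22, known in fly as an endocytosis factor, measured 4.55, 12.1, 21.4, 33.3 and 28.4 FPKM in CL and at most 0.048 in CM, with a log2 fold change of 4.10 ± 0.40. Its 2507 fragments in CL stood against 5 in CM, an 804-fold difference in pooled level with a 95% counting interval of 344 to 2478. DNAJC12, which in humans assists phenylalanine hydroxylase and the other aromatic amino acid hydroxylases, measured 36.0, 2.67, 6.01, 19.7 and 22.5 FPKM in CL and 0.284 to 0.927 in CM, with 3.03 ± 0.51. In HL it measured 15.1 to 36.0 FPKM, and CL 2 and CL 3 lay below every HL library. DNAJC5G, a relative of DNAJC5, had 1.51 ± 0.25, DNAJC21 1.26 ± 0.21 and DNAJC25 1.07 ± 0.17; in HL vs. HM DNAJC21 and DNAJC25 measured 0.94 and 0.87.

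The cytosolic core overlapped between the tissues in CL vs. CM. In CL vs. CM the log2 fold change was 0.65 ± 0.84 for HSPA2, 0.73 ± 0.50 for HSP90AA1 and 0.76 ± 0.43 for HSPA8 (limma, adjusted p = 0.518, 0.213 and 0.133), each with overlapping groups. After quantile normalization these values were -0.17, -0.11 and -0.11, so no direction is given for them. Without CL 5, the liver with the lowest HSP90AA1, HSPA8 and HSP90AA1 passed the threshold at 1.09 and 1.12. In HL vs. HM HSPA2 measured -0.96 ± 0.78, and without HL 1 it passed the threshold at -1.68 (limma, adjusted p = 0.0212). With all libraries HSP90AA1 in HL vs. HM was 0.88 ± 0.31 (limma, adjusted p = 0.0257), below the fold threshold, but every HL library lay above every HM library. DNAJA1, the main cytosolic partner of HSP70, measured 27.0 to 86.4 FPKM in CL and 27.4 to 51.9 in CM, with a log2 fold change of 0.51 ± 0.28. DNAJA2 had 0.53 ± 0.12 (limma, adjusted p = 0.00163) and did not overlap, at 51.0 to 57.2 FPKM in CL and 34.9 to 39.7 in CM.

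The remaining members were expressed in both tissues and none of them was a DEG in either tissue comparison. DNAJB6, a DNAJ protein that keeps polyglutamine proteins from aggregating, ran from 7.45 to 14.3 FPKM in liver and from 9.14 to 11.7 in breast muscle, with log2 fold changes of -0.14 in CL vs. CM and -0.36 in HL vs. HM. DNAJC7 was below its muscle level in liver in both diets, with -0.77 and -0.91, and DNAJC11, a protein of the mitochondrial membrane contact sites, was above it, with 0.94 and 0.63, all below the fold threshold. DNAJC8, a splicing factor, ran from 33.0 to 53.7 FPKM in liver and from 27.3 to 67.9 in breast muscle. DNAJC2, which binds the ribosome, lay between 8.53 and 24.3 FPKM in the 20 libraries, HSPA4L, a close relative of HSPA4, between 8.38 and 35.0, and HSPA14, an HSP70 that works at the ribosome, between 3.78 and 8.10. DNAJC16 lay between 1.61 and 8.18 FPKM, DNAJC17 between 1.20 and 2.79 and DNAJB14, an ER membrane partner of DNAJB12, between 7.06 and 10.6. DNAJC6, the auxilin that uncoats clathrin vesicles in neurons, ran from 0.0447 to 1.14 FPKM and was not tested, and DNAJC27 ran from 0.236 to 2.12.

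Entries that the symbols did not reach bear on the picture. Both LOC119714098 and LOC119714097 are described in the table as HSP30C-like, after a small heat shock protein known from frogs. LOC119714098 ran from 6.98 to 2144 FPKM in liver, with its highest value in CL 5, where HSPA2 was at 72.8, and from 59.0 to 1209 in breast muscle, with its highest in HM 3. LOC119714097 measured 0.194 to 7.75 FPKM in liver and 54.5 to 951 in breast muscle, again highest in HM 3. An entry described as similar to DNAJB1, the inducible partner of HSP70, measured 2.12 to 49.4 FPKM in liver, with its highest values of each diet in CL 1 and HL 1. Copies of near-identical sequence may share or lose reads, since only reads that mapped to one place were counted.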

How the data were processed

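Liver and breast muscle of 10 ducks were sequenced by the study as poly-A RNA, in 20 libraries. By that count the liver and muscle groups of a diet share ducks. The main fits of the tissue comparisons and the interaction took the libraries as independent, because the labels do not give the pairs. The authors aligned reads with HISAT2 2.0.5 to the duck genome ZJU1.0, kept those mapped to a single place, and deposited FPKM values for 25117 genes. The counting tool and strand are not given in the sources used here, so overlapping antisense genes cannot be separated. Every value was a whole multiple of what 1 fragment is worth (100% of values), the authors' scaling equalled median-ratio size factors (ratio 1), and values were not scaled again.

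Genes at 1 FPKM or more in at least 5 of the libraries fitted were tested by limma 3.58.1 (lmFit, eBayes with trend) in R 4.3.3 on log2 of FPKM plus a pseudocount of 1, within each tissue or diet, or over all 20 libraries for the interaction. The p-values were adjusted by Benjamini-Hochberg over all genes tested. The authors' own test was DESeq2, for which deposited counts were not used here. The procedure was tested on simulated data. Sums were compared by exact permutation (scipy 1.17.1, Python 3.11.15), and figures drawn with matplotlib 3.10.9. Counting intervals are exact, at 95%, and a count of 0 was taken as up to 3 fragments per group; neither covers the spread between ducks. The limma p-values set a difference between groups against the spread between libraries within groups, and the exact p-values against relabellings of the libraries.

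Members were named by function, and the 8 smallest p-values of each diet comparison were always given. The members, the gene lists and the markers were chosen with earlier results of these data known. Of the members, 68 had their identifier in the reference gene table of the IASCAAS Pekin duck assembly and 67 the same symbol. The alternatives were a pseudocount of 0.1, no filter, a filter of 5 FPKM, median-ratio scaling, quantile normalization, robust eBayes, all 20 libraries in one fit, no fold threshold, a replicate block, voom on recovered fragments, and each library left out.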

Additional observations from a re-analysis of the deposited data

Results flagged for a closer look

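Sets of 5 libraries (a gene in a group) numbered 226. In 22 of them the highest or lowest library had a gap to the next of over 0.71 of the whole range. Independent normal values would give about 1 in 20, which the FPKM of genes in shared libraries need not follow. The share of such sets over all genes was not counted, so the 22 cannot be set against it. Over all genes tested in liver, CL 1 was highest for 25.5% and lowest for 20.5%. CL 1 was the highest library in 8 of the 22 sets and the lowest in 3. It was highest, in FPKM, for HSPA5 (1812), HSP90B1 (708.7), DNAJA4 (883.8), HSPA4 (316.1), HSPH1 (89.23), DNAJB9 (60.86), HSPA13 (38.4) and DNAJC18 (14.87). It was lowest for DNAJB2 (8.993), DNAJC14 (3.403) and DNAJB12 (8.126). HL 1 was far above the other HL libraries for HSPA2 (1410), HSP90B1 (916.8) and HSPA4 (85.3). In breast muscle HM 2 was highest for DNAJC8 (67.88), DNAJB2 (67.16), DNAJC5G (17.36) and DNAJC14 (22.88) and lowest for DNAJC13 (2.039). The others were DNAJC17 in CL 4 (2.596), DNAJC18 in CM 1 (18.41) and HSPA12A in CM 5 (13.57). DNAJB2 and DNAJC14 thus stood low in CL 1 and high in HM 2, the libraries that stood apart in their tissues over all genes.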

How the results depend on the processing

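No member was a DEG in HL vs. CL, HM vs. CM or the interaction under any setting run, and the lowest limma adjusted p of a member was 0.0556 in liver (DNAJC14, without CL 1) and 0.242 in breast muscle (without HM 2). Over all genes, the DEGs of HL vs. CL numbered 3 to 96 as single libraries were left out, with 96 without CL 1 and 60 without HL 3, 30 by voom and 77 with all 20 libraries in one fit, against 12. Members called in CL vs. CM numbered 22 to 25 without single libraries, and in HL vs. HM 21 to 24; without a fold threshold they were 39 and 42, by construction. Of the members called, 20 of 23 and 20 of 22 kept their call in every setting that tested them. DNAJC12, DNAJC22 and DNAJB5 in CL vs. CM and HSPA12A and DNAJB5 in HL vs. HM were tested in 19 settings, the others in 20. These counts include members that passed the filter only through the tissue where they were high, whose calls are a description. Quantile normalization reversed HSPA2 (-0.17), HSPA8 (-0.11) and HSP90AA1 (-0.11) in CL vs. CM and HSPA8 in HL vs. HM (-0.0082); the cause was not tested. The labels do not say whether equal numbers mark one duck. Deviations of same-numbered liver and muscle libraries over all genes correlated by 0.01 to 0.25 in the control and -0.12 to 0.26 in the linseed oil groups, not above 0.1 in every pair, so the numbers were not used as pairs, and whether they are pairs cannot be told. With the replicate block the members called were 0 in each diet comparison and the interaction, 23 in CL vs. CM and 22 in HL vs. HM, as without it, and the DEGs of all genes 0 in HL vs. CL and 1 in HM vs. CM. In the diet comparisons equal numbers belong to different ducks, so the block is no paired check there. The spread between ducks limits the diet comparisons, and low genes such as HSPB3 and DNAJB13 rest on few fragments. The search for heat shock elements in promoters was not run.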
